A study of Zea mays with 9 samples.

Results

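Dehydrins and other late embryogenesis abundant (LEA) protein genes were described in the growing tip of the maize primary root under water deficit. The 4 genes were chosen by name, as rows of the deposited transcript tables with the gene identifiers GRMZM2G079440 (rab17, also named dhn1), GRMZM2G373522 (dehydrin3, also named dhn2), GRMZM2G147014 and GRMZM2G162659 (EMB5, also named esp5), of 39323 gene identifiers in all. GRMZM2G147014 was taken as a dehydrin in that selection, although the name tables used here pair its identifier with no symbol, so it is called by its identifier.

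Seedlings of the inbred line B73 were grown in the dark in vermiculite that was well-watered (-0.02 MPa), under mild water deficit (-0.3 MPa) or under severe water deficit (-1.6 MPa), and the last 1 cm of each primary root was collected 26 hours after transplanting. These water potentials are those of the sample labels, since the title of the series gives another value for the mild treatment. Each treatment had 3 sequencing libraries of polyadenylated RNA (9 in all), and each library held the tips of 5 pooled roots, so a value is a mean over 5 plants and over every cell type of the tip. The labels number the replicates 1, 2 and 3 for well-watered, 1, 3 and 4 for mild and 1, 2 and 5 for severe water deficit, and these numbers are used below.

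LEA proteins are small, very hydrophilic and largely unfolded proteins that accumulate late in seed maturation, when the embryo dries, and that are also made in vegetative tissue during dehydration. Dehydrins are the LEA proteins that carry lysine-rich K-segments, which can bind membranes and other proteins. Transcription of many of these genes responds to abscisic acid (ABA), the hormone that rises in roots at low water potential, and rab17 takes its name from that response (responsive to ABA).

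The libraries held 34284421 to 43386112 counted reads in the well-watered, 33401124 to 41082013 in the mild and 35477267 to 52072025 in the severe treatment, so that 3 reads corresponded to a counts-per-million (CPM) value of 0.0576 to 0.0898. The leaf genes ssu1 and rbcS (ribulose bisphosphate carboxylase small subunits) had 0 to 5 reads in any library. The third leaf gene, pep1 (GRMZM2G083841, phosphoenolpyruvate carboxylase), had 20 to 110 reads and averaged 1.16 CPM in well-watered, 0.678 CPM in mild and 1.5 CPM in severe tips, and it was called higher in severe against mild tips (log2 fold change 1.14, edgeR FDR 0.0322). The kernel storage protein gene gz27 had 0 to 7 reads. The root hair gene rth3 averaged 59.8 CPM in well-watered, 60.9 CPM in mild and 42.8 CPM in severe tips. It was called lower in severe against well-watered tips (log2 fold change -0.48, edgeR FDR 9.48e-05). The other root gene, rtcs1 (GRMZM2G092542), was called higher in that comparison (1.89, edgeR FDR 7.42e-06). Over all libraries only 7.31% of the rth3 reads and 21.1% of the rtcs1 reads were unique to a transcript. The genes of the replication clamp PCNA, a mark of dividing cells, averaged 46.9 CPM (pcna1) and 81.9 CPM (pcna2) in severe against 79.3 CPM and 109 CPM in well-watered tips (log2 fold changes -0.76 and -0.41), although none of the 36883 reads of pcna2 over all libraries was unique to a transcript. The part of such shifts in the results below was not tested, and in pooled whole tips a change in the share of a cell type cannot be told apart from a change in RNA per cell.

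One library stood apart. In severe replicate 2, 48 of 26048 genes had at least 1 CPM and were at least 5-fold above both other severe libraries. By the same rule each of the other 8 libraries had 0 to 5 genes relative to its own treatment. Among genes with at least 1 CPM in severe replicate 2, rab17 was number 2 by this ratio (17.5-fold). GRMZM2G457309 was first (24.7-fold), and the lipoxygenase gene lox10 was number 6 (11.5-fold). The other members did not share this: in severe replicate 2 they were 1.31-fold (EMB5), 1.13-fold (GRMZM2G147014) and 0.932-fold (GRMZM2G373522) the higher of the other severe libraries. The tested changes of rab17 are therefore given with and without severe replicate 2.

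**Figure D1:**
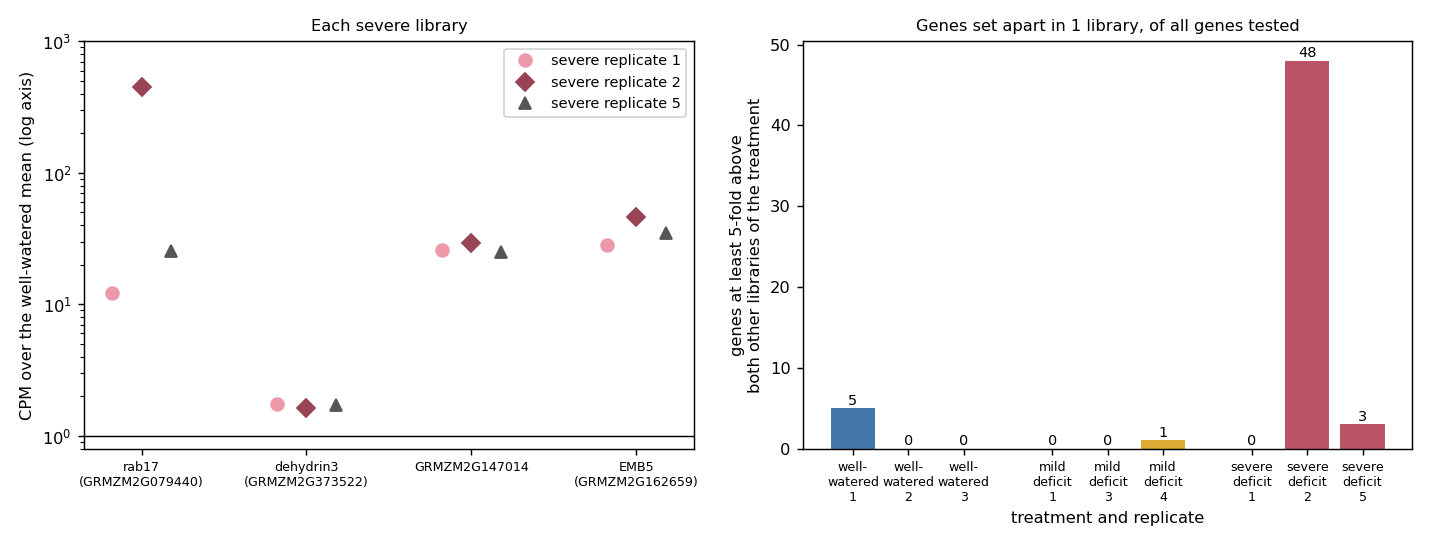
Left, CPM of each member in severe replicates 1, 2 and 5 divided by the well-watered mean, on a log axis with the line at 1. Right, for each library, the number of genes, of 26048 tested, with at least 1 CPM in it and at least 5-fold above both other libraries of the same treatment. For rab17, severe replicate 2 lies far above replicates 1 and 5 (447-fold against 12.2-fold and 25.5-fold), while the 3 severe libraries lie closer together for the other members, and the bar of severe replicate 2 reaches 48 genes.

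To learn how the transcript level of each gene differed between water treatments, reads were summed by gene and the 3 treatments were compared in pairs with edgeR's quasi-likelihood test across 26048 genes. A gene was called at a false discovery rate (FDR, adjusted after Benjamini and Hochberg) below 0.05. Log2 fold changes are given with a standard error (SE) worked back from the test. It is the absolute log2 fold change over the square root of the test's F statistic, so it is not a separate estimate. Under severe water deficit all 4 genes rose relative to well-watered tips (4 of 4 called higher), where 27.6% of all genes tested were called higher. Under mild water deficit 3 of 4 rose, where 4.55% of all genes were called higher, and rab17 was not called. Between severe and mild water deficit again 4 of 4 were higher under severe deficit, with 26.0% of all genes called higher. The libraries did not overlap in 4, 3 and 4 members in these comparisons, and such a gap upwards was seen in 30.9%, 15.4% and 29.6% of all genes. The members were chosen with earlier results of these data known, so these shares are a description and not a test of the members. The counts of members called were the same without severe replicate 2. With a term for the replicate number in the fit they were 4, 1 and 3, and with limma-voom 3, 2 and 3.

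The fitted log2 fold changes under severe water deficit ranged over 0.75 to 7.35. By the log2 fold change of severe against well-watered tips, rab17 was number 58 of 26048 genes, EMB5 number 194, GRMZM2G147014 number 258 and GRMZM2G373522 number 4307. Without severe replicate 2 the changes were 4.22 for rab17, 5.00 for EMB5 and 4.67 for GRMZM2G147014, so rab17 was the lowest of these. Ranks among all genes were not taken without that library.

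**Figure D2:**
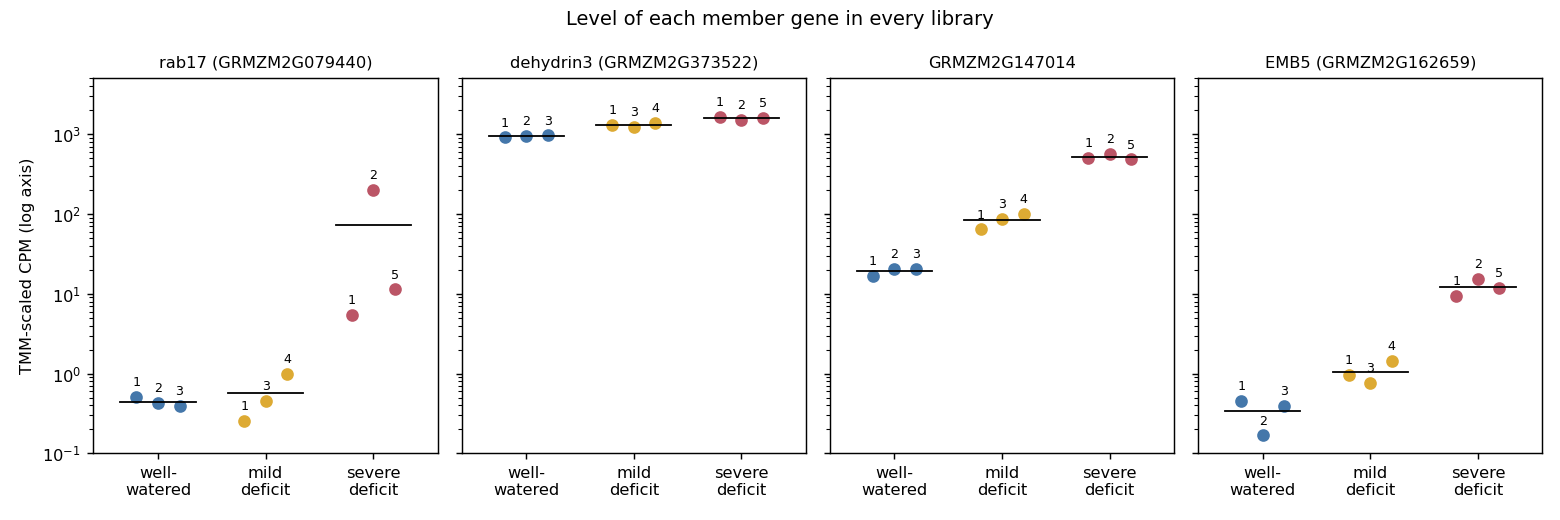
CPM scaled by TMM (trimmed mean of M values) for each of the 4 genes, on a log axis, in the 9 libraries, with the replicate number of the labels above each point and the treatment mean as a bar. GRMZM2G147014 and EMB5 step up at each treatment without overlap, EMB5 with more spread, GRMZM2G373522 is high throughout and moves least, and rab17 is low in the well-watered and mild libraries and spread over 5.44 to 199 CPM in the severe libraries.

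GRMZM2G147014 (chromosome 5, 193902115 to 193903647, minus strand, 2 exons, in B73 RefGen_v3) rose at each step of water deficit with the smallest relative error of the strongly changed members. It was measured at 16.8, 20.6 and 20.4 CPM in well-watered replicates 1, 2 and 3, at 64.1, 87.6 and 100.0 CPM in mild replicates 1, 3 and 4, and at 499, 564 and 484 CPM in severe replicates 1, 2 and 5. No library of one treatment reached the range of the next, and every severe library lay 25.1 to 29.3 times above the well-watered mean. The log2 fold change was 4.74 (SE 0.16, edgeR FDR 2.73e-09) for severe against well-watered, 2.12 (SE 0.147, edgeR FDR 6.3e-06) for mild against well-watered and 2.62 (SE 0.143, edgeR FDR 3.11e-07) for severe against mild. Without severe replicate 2 the severe change was 4.67. All of its reads were unique to its only transcript, and it passed the test under every alternative setting in all 3 comparisons.

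EMB5 (chromosome 6, 140501700 to 140502699, minus strand, 2 exons) also rose under both deficits, at a much lower level. It had 15, 7 and 16 reads in well-watered replicates 1, 2 and 3, 38, 25 and 58 reads in mild replicates 1, 3 and 4, and 506, 869 and 439 reads in severe replicates 1, 2 and 5, all of them unique. The treatment means were 0.337 ± 0.15 CPM in well-watered, 1.05 ± 0.343 CPM in mild and 12.3 ± 3.07 CPM in severe tips (SD, n = 3 each). The groups did not overlap in any comparison. EMB5 rose by 5.21 on the log2 scale in severe against well-watered tips (SE 0.31, edgeR FDR 1.52e-07) and by 3.53 in severe against mild tips (SE 0.262, edgeR FDR 2.34e-06). In mild against well-watered tips the change was 1.68 (SE 0.378, edgeR FDR 0.0159). This call was lost without well-watered replicate 2, the library with 7 reads (1.34, edgeR FDR 0.0724), without mild replicate 4 (1.39, edgeR FDR 0.0817), with limma-voom (1.72, FDR 0.154) and when single transcripts were tested in place of genes (1.67, edgeR FDR 0.0616). It was also lost with a term for the replicate number in the fit and at FDR below 0.01.

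GRMZM2G373522 (chromosome 4, 154337342 to 154339063, minus strand, up to 3 exons) was the most abundant of the 4 members in every treatment and moved least. It was measured at 913, 947 and 965 CPM in well-watered replicates 1, 2 and 3, at 1323, 1248 and 1388 CPM in mild replicates 1, 3 and 4, and at 1638, 1526 and 1600 CPM in severe replicates 1, 2 and 5. Libraries of a treatment differed by a coefficient of variation of 2.8%, 5.31% and 3.59% in well-watered, mild and severe tips, and the ranges of the 3 treatments did not overlap. The log2 fold change was 0.75 (SE 0.0711, edgeR FDR 5.04e-06) for severe against well-watered, 0.49 (SE 0.0709, edgeR FDR 0.00108) for mild against well-watered and 0.27 (SE 0.0707, edgeR FDR 0.00809) for severe against mild. On the fold scale every severe library was 1.62 to 1.74 times the well-watered mean. With a term for the replicate number in the fit, the calls in mild against well-watered (edgeR FDR 0.0847) and severe against mild (edgeR FDR 0.154) were lost.

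Only 58.3% to 60.1% of the reads of GRMZM2G373522 in a library were unique to a transcript, and the files do not say whether the others were shared between its own transcripts or with another gene. With unique reads alone its log2 fold changes were 0.77 for severe and 0.49 for mild against well-watered and 0.29 for severe against mild, and all were called. The gene has 2 annotated transcripts, of 1356 and 748 bases, and the longer one, T01, took nearly all reads. T01 had 30094 to 39629 reads in well-watered, 41224 to 56381 in mild and 59335 to 87467 in severe libraries, whereas T02 had 12 to 32, 52 to 59 and 69 to 104 reads. When 44402 transcripts were tested singly, T02 rose by 1.76 (SE 0.294, edgeR FDR 0.00185) in severe and by 1.48 (SE 0.296, edgeR FDR 0.0342) in mild against well-watered tips, and T01 rose by 0.79 (SE 0.0627, edgeR FDR 3.81e-05) and 0.49 (SE 0.0625, edgeR FDR 0.00402). Whether the 2 transcripts changed by different factors was not tested, and their split rests on how the deposited tables assigned shared reads. The other 3 members have 1 annotated transcript each.

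The gene rab17 (chromosome 6, 137332062 to 137333893, minus strand, 2 exons) encodes a dehydrin that is known in maize as a substrate of the protein kinase CK2. With all libraries in the fit it had the highest fold change of the 4 under severe water deficit and by far the least even one. Its reads numbered 17, 18 and 16 in well-watered replicates 1, 2 and 3 and 10, 15 and 40 in mild replicates 1, 3 and 4. In severe replicates 1, 2 and 5 they numbered 291, 11137 and 422, which is 5.44, 199 and 11.4 CPM. Every severe library was above every well-watered and mild library, and the well-watered and mild libraries overlapped.

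For rab17 the log2 fold change was 7.35 (SE 1.47, edgeR FDR 0.00121) in severe against well-watered tips and 6.97 (SE 1.42, edgeR FDR 0.0017) in severe against mild tips. Severe replicate 2 set the size of these values. Without it they were 4.22 (SE 0.382, edgeR FDR 7.96e-07) and 3.85 (SE 0.368, edgeR FDR 2.45e-06), both still called, and the standard error was smaller. With limma-voom, which kept all 9 libraries, neither passed (5.74, FDR 0.184, and 5.58, FDR 0.196). The severe mean of 72 ± 110 CPM (SD, n = 3) thus describes no library, and the coefficient of variation was 14.4% in well-watered, 66.8% in mild and 153% in severe tips.

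Mild water deficit gave no called change of rab17 (log2 fold change 0.38, SE 2.57, edgeR FDR 0.961). The mean was 0.564 CPM in mild and 0.446 CPM in well-watered tips, and its sign turned to -0.34 without mild replicate 4, the library with 40 reads. A fit that left out severe replicate 2 had a narrower error (0.37, SE 0.508, edgeR FDR 0.706), so that no change in either direction was detectable at this depth. In the same libraries GRMZM2G147014 and EMB5 were 3.33 to 5.19 times and 2.24 to 4.23 times their well-watered means, while rab17 was 0.572, 1.02 and 2.21 times its own.

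**Figure D3:**
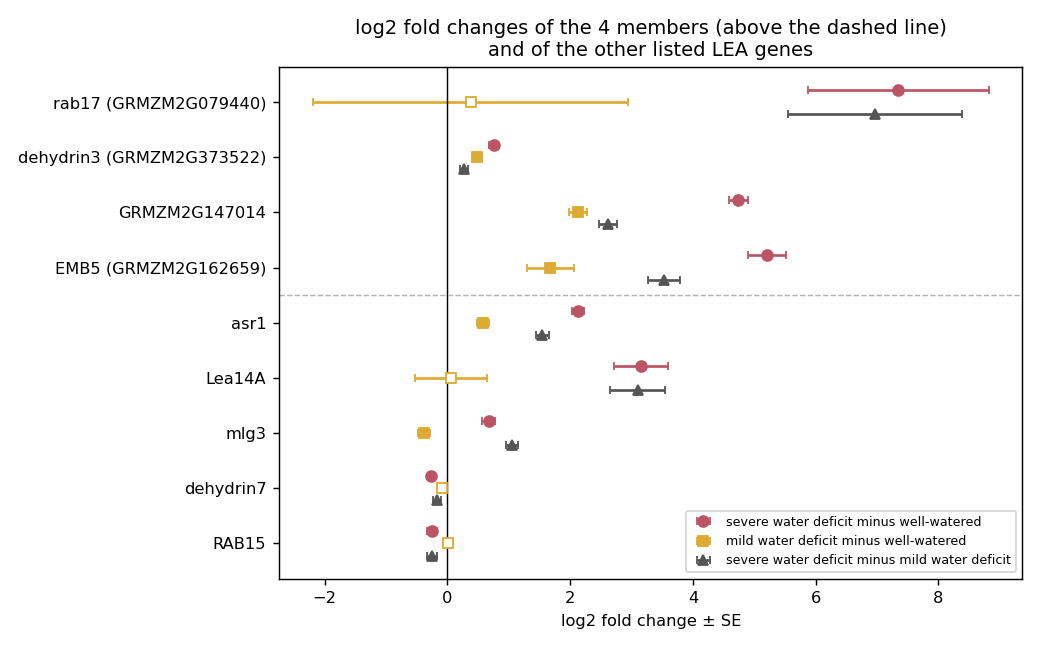
log2 fold changes (points) with standard errors (bars), worked back from the edgeR test, for the 4 members and the other listed genes. RAB15 was listed by its RAB symbol alone and is not shown to be a LEA gene. Circles show severe against well-watered, squares mild against well-watered and triangles severe against mild tips, with filled symbols for calls at FDR below 0.05. The points of the 4 members lie to the right of 0 in every comparison, with the bars widest for rab17 and crossing 0 for its mild change. The other listed genes are divided, with dehydrin7 and RAB15 near 0.

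Levels of different genes were compared per length, as transcripts-per-million (TPM) values. In well-watered tips GRMZM2G373522 averaged 1035 ± 35.1 TPM, GRMZM2G147014 20.4 ± 2.29 TPM, EMB5 0.586 ± 0.262 TPM and rab17 0.388 ± 0.0539 TPM (SD, n = 3 each). The last 2 of this order overlapped, since EMB5 ranged over 0.29 to 0.787 TPM and rab17 over 0.342 to 0.447 TPM. In mild tips the order was the same, at 1483 ± 85.8, 91.2 ± 21.1, 1.87 ± 0.626 and 0.505 ± 0.343 TPM, and no neighbours overlapped. In severe tips GRMZM2G373522 averaged 1947 ± 8.51 TPM and GRMZM2G147014 612 ± 71.3 TPM, whereas rab17 (5.15 to 201 TPM) and EMB5 (17.9 to 31.3 TPM) overlapped and could not be placed in order.

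Among all 39323 gene identifiers ranked by mean TPM, GRMZM2G373522 was number 81 in well-watered, 34 in mild and 19 in severe tips. GRMZM2G147014 was number 8045, 2073 and 187. The gene rab17 was number 24324, 23915 and 2722, and EMB5 was number 23294, 20142 and 7762. The severe rank of rab17 rests on severe replicate 2, at 201 TPM against 5.15 and 10.9 TPM in severe replicates 1 and 5.

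The balance among the 3 member dehydrins differed between the treatments. The TPM of GRMZM2G373522, GRMZM2G147014 and rab17 together came to 1018, 1056 and 1092 in well-watered, 1526, 1509 and 1689 in mild and 2536, 2842 and 2516 in severe libraries. GRMZM2G373522 made up 98.2%, 97.9% and 98.0% of this sum in well-watered, 95.5%, 93.6% and 93.5% in mild and 77.1%, 68.5% and 77.1% in severe libraries. GRMZM2G147014 made up 1.75% to 2.05%, then 4.47% to 6.5%, then 22.5% to 24.4%. The ranges did not overlap for either gene. The listed dehydrin7, which is described below, is not in this sum. With it included, GRMZM2G373522 made up 87.3% to 87.7% in well-watered, 86.8% to 88.3% in mild and 65.9% to 73.7% in severe libraries, so that only the severe libraries lay apart. GRMZM2G147014 then made up 1.55% to 1.84%, 4.13% to 6.05% and 21.5% to 23.5%, still without overlap, and dehydrin7 made up 10.5% to 11.1%, 6.73% to 7.58% and 3.86% to 4.61%, so dehydrin7 lay above GRMZM2G147014 in well-watered and mild and below it in severe libraries.

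The share of rab17 in the sum of the 3 members was 0.0313% to 0.0439% in well-watered and 0.0146% to 0.0525% in mild libraries, which overlapped. In severe replicates 1, 2 and 5 it was 0.203%, 7.08% and 0.433%, so the lower share of GRMZM2G373522 in severe replicate 2 went with a higher share of rab17. These shares are on the TPM scale and were not tested.

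**Figure D4:**
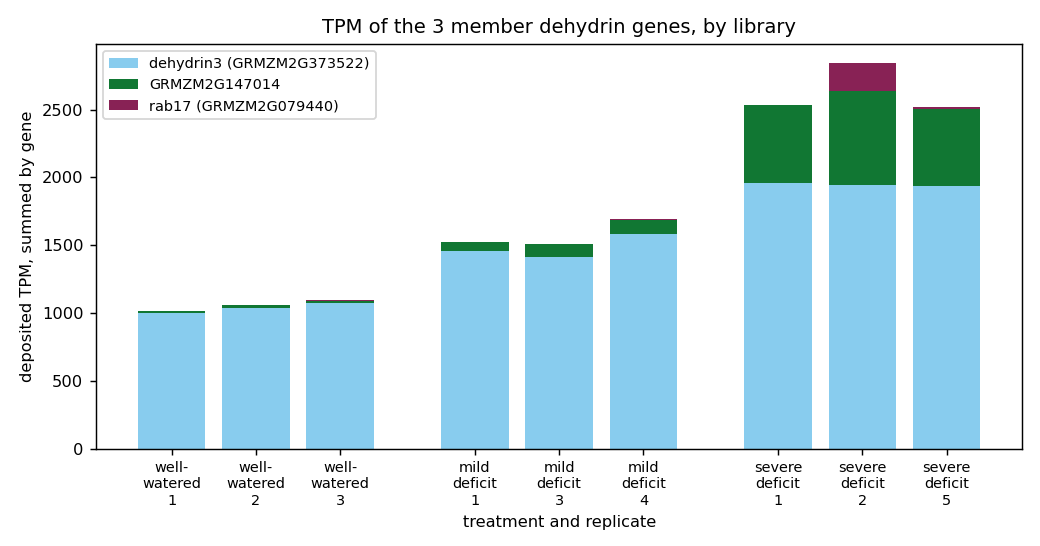
Deposited TPM summed by gene for the member dehydrins GRMZM2G373522, GRMZM2G147014 and rab17 (dehydrin7 is not included), stacked from 0 in each library, with libraries ordered by treatment and labelled by replicate number. The stack is 1018 to 1092 TPM high in well-watered, 1509 to 1689 TPM in mild and 2516 to 2842 TPM in severe libraries, most of it GRMZM2G373522 and GRMZM2G147014, and rab17 is visible as a thick band in severe replicate 2 alone.

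Other named genes were listed by a symbol or synonym of a dehydrin, LEA, RAB or ASR gene, which gave 5 genes, all tested. RAB15 entered by its RAB symbol alone, which names a response to ABA and not a protein family. It is therefore not shown to be a LEA gene. The reference name table matched 18844 of 39323 gene identifiers. A gene without such a symbol, like GRMZM2G147014, could not enter the list, which is therefore not the whole family. Under severe water deficit 3 were called higher and 2 lower than in well-watered tips (27.8% of all genes were called lower), with a median log2 fold change of 0.67 against -0.01 over all genes. Under mild water deficit 1 was called higher and 1 lower (4.37% of all genes were called lower), with a median of 0.003 in the list and -0.004 over all genes. Between severe and mild water deficit 3 were called higher and 2 lower, where 24.0% of all genes were called lower, with a median of 1.05 against 0.01 over all genes. RAB15 was 1 of the 2 called lower in severe against well-watered and in severe against mild tips, and dehydrin7 was the other. The listed genes thus did not all move as the 4 members did.

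The gene asr1 (GRMZM2G136910, abscisic acid, stress and ripening), which encodes a small hydrophilic protein, was called higher in all 3 comparisons, as were all members but rab17. It was measured at 236, 225 and 184 CPM in well-watered, 301, 334 and 328 CPM in mild and 889, 1050 and 878 CPM in severe libraries, with no overlap. It rose by 2.13 (SE 0.105, edgeR FDR 4.4e-08) in severe and by 0.58 (SE 0.101, edgeR FDR 0.00374) in mild against well-watered tips. At 1252 ± 173 TPM in severe tips (SD, n = 3) it lay between GRMZM2G373522 and GRMZM2G147014 per length.

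Lea14A (GRMZM2G050607), of the atypical and less hydrophilic LEA14 group, resembled rab17 in that only severe water deficit gave a called change. It had 3, 8 and 8 reads in well-watered, 6, 8 and 5 reads in mild and 40, 114 and 61 reads in severe libraries. The log2 fold change was 3.15 (SE 0.446, edgeR FDR 0.000104) for severe and 0.05 (SE 0.582, edgeR FDR 0.975) for mild against well-watered tips. Unlike rab17, it was spread over no more than 2.73-fold among the severe libraries.

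The group 3 LEA gene mlg3 (GRMZM2G096475) moved in opposite directions in the 2 treatments. It was measured at 22.5 to 28.4 CPM in well-watered, 17 to 21.4 CPM in mild and 36.7 to 41.5 CPM in severe libraries. It rose by 0.67 (SE 0.101, edgeR FDR 0.000159) in severe and fell by 0.38 (SE 0.103, edgeR FDR 0.0399) in mild against well-watered tips. The mild call was lost in 8 of 20 alternative settings, where the FDR reached 0.247, but its sign held in all 20.

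Dehydrin7 (GRMZM2G002786) and RAB15 (GRMZM2G165901) were slightly lower under severe water deficit. RAB15 was listed by its symbol alone, so its fall is not shown to be that of a LEA gene. Dehydrin7 averaged 87.4 CPM in severe against 105 CPM in well-watered tips (-0.26, SE 0.0626, edgeR FDR 0.00393), and RAB15 averaged 1666 against 1988 CPM (-0.26, SE 0.0822, edgeR FDR 0.0198). In a library only 12.9% to 14.7% of the RAB15 reads were unique, and its call was lost with unique reads. RAB15 was also lost without any 1 of the 3 well-watered libraries, and the calls of severe against mild (-0.17 for dehydrin7, -0.26 for RAB15) were lost in 12 and 5 of 20 settings. Without TMM factors, which moved the median log2 fold change of all genes to 0.12, RAB15 was at -0.13 and was not called.

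Genes of ABA signalling were read from a list of 19 genes named as receptors, kinases or transcription factors, of which 16 had enough reads to be tested. The transcription factor gene of the list, vp1, was not tested, and no phosphatase was listed. The counts below therefore cover receptor and kinase genes only. The PYL receptors bind ABA and then inhibit protein phosphatases 2C, which releases SnRK2 kinases to phosphorylate transcription factors of ABA-responsive genes. Under severe water deficit 4 were called higher and 9 lower than in well-watered tips, with a median log2 fold change of -0.21 against -0.01 over all genes, where 27.6% of all genes were called higher and 27.8% lower. Under mild water deficit edgeR called 0 higher and 8 lower, with a median of -0.31, where 4.55% of all genes were called higher and 4.37% lower. DESeq2 and limma-voom also called 0 higher, and 1 gene, SnRK2.1, was higher at an unadjusted edgeR p under 0.05 (0.0485). Between severe and mild water deficit 5 were called higher and 6 lower, with a median of 0.03, where 26.0% of all genes were called higher and 24.0% lower. Without severe replicate 2 the counts were 4 and 7, 0 and 9, and 5 and 4. With unique reads 0 were called higher and 8 lower in severe against well-watered tips. The genes SnRK2.1, SnRK2.6 and PYL11 had too few unique reads to be tested there, so their rises could not be called. SnRK2.2 was tested there and was not called. The 9 lower calls included falls of -0.16 and -0.25 that were lost in 12 of 19 and 9 of 20 alternative settings.

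The 2 largest changes in that list were falls of the receptor genes PYL5 and PYL7. PYL7 (GRMZM2G144224) was measured at 65.8, 66.4 and 59.4 CPM in well-watered, 20.9, 14 and 14.8 CPM in mild and 3.74, 3.77 and 3.39 CPM in severe libraries, with no overlap. It fell by 4.13 in severe (SE 0.142, edgeR FDR 2.8e-09) and by 1.94 in mild (SE 0.124, edgeR FDR 3.65e-06) against well-watered tips. PYL5 (GRMZM2G057959) fell by 4.19 in severe (SE 0.212, edgeR FDR 4.66e-08) and by 2.19 in mild (SE 0.184, edgeR FDR 2.23e-05). The receptor genes GRMZM2G047677 (PYL3, also PYL4), GRMZM2G154987 (PYL3) and GRMZM2G134731 (PYL2) fell by 2.09, 1.80 and 1.07 under severe deficit. PYL5 and PYL7 stepped down where GRMZM2G147014 and EMB5 stepped up.

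The called rises in that list were those of the kinase genes SnRK2.1 (GRMZM2G035809, 2.32), SnRK2.6 (GRMZM2G130018, 1.31) and SnRK2.2 (GRMZM2G056732, 0.57) and of the receptor gene PYL11 (GRMZM2G133613, 1.03) in severe against well-watered tips. These rises rest on reads that were not unique to a transcript: SnRK2.1 had 5 unique reads of 2206 over all libraries, SnRK2.6 had 0 of 3193, SnRK2.2 had 118 of 15633 and PYL11 had 23 of 617. The seed transcription factor gene vp1 (viviparous1) had 0 to 3 reads in any library, which is at or below the limit of 3 reads.

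As a description over the 9 libraries, the genes whose log2 CPM was most like each member were sought among the 16516 other genes (16517 for EMB5) with a mean of at least 5 CPM. The points share the 3 treatments and the same libraries, and no p is given. Most like GRMZM2G147014 were GRMZM2G006981 (Pearson r = 0.998), the protein phosphatase 2C gene PP2C11 (GRMZM2G308615, r = 0.997) and GRMZM5G827496 (r = 0.995). PP2C11 had log2 fold changes of 5.14 in severe and 2.19 in mild against well-watered tips, near those of GRMZM2G147014. Most like GRMZM2G373522 were GRMZM2G321290 (r = 0.991), the aldehyde oxidase gene AO1 (GRMZM2G141535, r = 0.990) and GRMZM2G075227 (r = 0.990).

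Most like EMB5 were GRMZM2G331811 (named srp30, r = 0.993), GRMZM2G148772 (r = 0.990) and GRMZM2G028521 (r = 0.990). Most like rab17 were GRMZM2G117007 (r = 0.994), GRMZM2G356817 (r = 0.993) and GRMZM2G356839 (r = 0.992), each of which was also highest in severe replicate 2. GRMZM2G356817, for example, was measured at 31.8, 59.5 and 34.3 CPM in severe replicates 1, 2 and 5, against 17.4 to 19 CPM in well-watered libraries. All r values of rab17 include severe replicate 2 and were not computed without it. Among the members, r was 0.967 for GRMZM2G147014 with EMB5, 0.961 for GRMZM2G147014 with GRMZM2G373522, 0.902 for EMB5 with GRMZM2G373522, 0.879 for rab17 with EMB5, 0.820 for rab17 with GRMZM2G147014 and 0.660 for rab17 with GRMZM2G373522.

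The members lie on chromosomes 4, 5 and 6 and none overlaps another annotated gene of the files. The nearest neighbour of rab17, GRMZM2G381748, lies 1521 bases away and had 0 reads in every library, and so did GRMZM2G113238, which lies 2153 bases from GRMZM2G147014. The nearest neighbour of EMB5, GRMZM2G162672, lies 1137 bases away on the other strand and was not called in severe against well-watered tips (log2 fold change -0.02, edgeR FDR 0.825), but it was called higher in mild against well-watered tips (0.23, edgeR FDR 0.0346). The nearest neighbour of GRMZM2G373522, GRMZM2G073770, lies 45253 bases away and rose by 0.44 in severe against well-watered tips (edgeR FDR 0.00165).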

How the data were processed

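Illumina libraries of 9 samples were analysed. Per the study's methods, the authors trimmed and mapped reads in CLC Workbench 6.8.1 to the B73 genome and gene models (RefGen_v3). The deposited tables give total and unique read counts per transcript, the transcript length (another column, in bases), CPM and TPM. The deposited TPM was summed by gene and used for levels between genes. The deposited CPM equalled total reads over the sum of 46599 listed transcripts (largest difference 5e-07) and was not otherwise used. No column of the authors' own comparisons was used.

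Total read counts of 63074 transcripts were summed to 39323 genes. Depth was 33401124 to 52072025 counted reads a library. Within genes, CPM was scaled by TMM. With edgeR 4.0.16 (R 4.3.3), genes were kept by filterByExpr and all 9 libraries were fitted together with treatment as the only term (glmQLFit, glmQLFTest), with p-values adjusted after Benjamini and Hochberg over 26048 genes. The script was tested on simulated data. Single transcripts were fitted likewise. Replicates are separate pools of roots per the study's methods.

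The 4 members and the gene lists were chosen with earlier results of these data known. All 4 members are described in every library, with all 5 other genes of the LEA list, of which RAB15 entered by its RAB symbol alone. Of the ABA list, at most 8 called genes of largest severe change are named. For each member the 3 genes of highest r with a mean of at least 5 CPM are named. SnRK2.2, the neighbours and the genes set apart in severe replicate 2 were named after their values were seen. Names came from RefSeq (assembly Zm-B73-REFERENCE-NAM-5.0), which matched 18844 genes and all 4 members. SnRK2 symbols were read as the listed SAPK kinases, and no phosphatase could be listed because the table gives no clade. Promoter and protein sequences were not used here. Alternatives were unique reads, other filters, no TMM factors, DESeq2 1.42.0, limma-voom (limma 3.58.1), the likelihood ratio test, only the 2 treatments compared, the replicate block, transcripts with a deposited CPM, FDR below 0.01, leaving out each library and, chosen after seeing the data, a robust fit.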

Additional observations from a re-analysis of the deposited data

How the results depend on the processing

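Severe against well-watered changes of GRMZM2G147014, EMB5 and GRMZM2G373522 kept their direction and call in all alternatives. With limma-voom, rab17 lost its calls in severe against well-watered (5.74) and severe against mild (5.58), and EMB5 in mild against well-watered (1.72). The cause was not tested. At FDR below 0.01 EMB5 (1.68) was not called under mild deficit. The labels do not say whether the replicate numbers pair the samples. Deviations of same-numbered libraries correlated at -0.0122 to 0.119, those of other pairs at -0.279 to 0.365. With 5 same-numbered pairs these values cannot decide whether such libraries share a source of variation. With the replicate block, in which mild replicate 4 and severe replicate 5 have no partner, GRMZM2G373522 (0.44, edgeR FDR 0.0847) and EMB5 (1.52, edgeR FDR 0.093) were not called in mild against well-watered, nor GRMZM2G373522 in severe against mild (0.31, edgeR FDR 0.154), and genes called in all numbered 1399 and 6769 in these comparisons, against 2324 and 13032 without the block. Genes called in mild against well-watered were 2324 in the fit of all libraries, 3800 with only the 2 treatments compared and 1144 at FDR below 0.01.

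Leaving out 1 library, rab17 ranged over 4.22 to 7.91 (severe against well-watered), -0.34 to 0.75 (mild against well-watered) and 3.85 to 7.70 (severe against mild), and EMB5 over 1.34 to 1.93 in mild against well-watered. Genes called in mild against well-watered ranged over 1376 (without mild replicate 3) to 3646 (without severe replicate 2), and were 1407 without well-watered replicate 2 and 1432 without mild replicate 4. Of the 5 LEA list genes, 1 to 2 were called in mild against well-watered and 3 to 5 in severe against mild when 1 library was left out. Against 2 in the fit of all libraries, 1 LEA list gene was called in mild against well-watered without TMM factors, with limma-voom, with the replicate block and at FDR below 0.01. Against 5, 3 were called in severe against mild with unique reads, at least 1 CPM in 3 libraries, no TMM factors, only the 2 treatments compared, the replicate block and FDR below 0.01. Without TMM factors the share of called genes that were higher moved to 65.0% from 49.9% in severe against well-watered and to 65.0% from 52.0% in severe against mild, and the 4 members kept their calls. For depth, 3 reads were 0.0576 to 0.0898 CPM, so changes of vp1 could not be read and those of rab17 and EMB5 in well-watered tips rest on 7 to 18 reads a library.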

Other observations

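Kernel genes other than LEA genes were read after the results of the LEA genes had been seen. The lipid body protein gene ZLP (GRMZM2G374971) had 7, 23 and 22 reads in well-watered, 70, 38 and 38 in mild and 135, 195 and 147 in severe libraries, and rose by 2.89 (SE 0.334, edgeR FDR 2.32e-05) in severe and by 1.53 (SE 0.354, edgeR FDR 0.018) in mild against well-watered tips. The seed-type tonoplast aquaporin gene TIP3-2 (GRMZM2G103983) averaged 23.1 CPM in severe and 12.8 CPM in well-watered tips and rose by 0.86 (SE 0.121, edgeR FDR 0.000103), while in mild tips it averaged 11.1 CPM and was not called (log2 fold change -0.21 against well-watered, edgeR FDR 0.386). The oleosin genes OLE16 and OLE18 and the aquaporin gene TIP3-1 had 0 to 14 reads in any library and were not tested. The root gene rtcs1 (GRMZM2G092542) averaged 8.38 CPM in severe and 2.25 CPM in well-watered tips, with a log2 fold change of 1.89 (SE 0.187, edgeR FDR 7.42e-06).

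Among the genes that stood apart in severe replicate 2 together with rab17, GRMZM2G044851 had 35, 608 and 20 reads in severe replicates 1, 2 and 5, against at most 12 reads in any mild and 8 in any well-watered library. In the same severe libraries lox10 had 50, 937 and 54 reads, against at most 5 reads in any mild and 4 in any well-watered library.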
